A study of Homo sapiens with 4 samples.

Results

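The distal short arm of chromosome 9 was examined as 1 stretch of open chromatin peaks in SK-N-BE(2)C, an established MYCN-amplified neuroblastoma cell line. A peak belonged to the stretch, called the 9p segment here, when it lay on chromosome 9 and ended at or before base 28400000 of GRCh38. The segment held 449 of the 90292 deposited peaks. Of these, 316 came from the 47610 peaks of control cells and 133 from the 42682 peaks of sgSNHG1 cells. The end of the segment was chosen on the readout, at the place along chromosome 9 where the ratio of peak height between both lists changed. All differences between the lists inside the segment are therefore descriptions of what the choice used.

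Open chromatin was measured by ATAC-seq, in which the Tn5 transposase inserts sequencing adapters into accessible DNA. The 4 samples fell into 2 groups of 2. Control cells carried a non-targeting control gRNA and are labelled wildtype, and sgSNHG1 cells carried SNHG1 gRNA and are labelled SNHG1 knockout, while the study's methods speak of depletion. The study's methods describe Cas9 with guide RNAs, a fluorescent surrogate reporter, puromycin selection and growth from single sorted cells for the SNHG1-depletion clones. They do not describe these steps separately for the control line. The control line was 1 clone, and how many sgSNHG1 clones entered ATAC-seq is not given in the sources used here. Clone and guide can therefore not be told apart. Each line was assayed in 2 independent experiments, but the authors combined both before calling peaks, so that each group is 1 list with no replicate spread and no test between the groups was made.

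This arm carries the 9p21 tumour suppressor stretch. CDKN2A encodes from overlapping reading frames p16INK4a, an inhibitor of the cyclin D kinases CDK4 and CDK6, and p14ARF, which stabilises p53 by binding MDM2. Its neighbour CDKN2B encodes the related inhibitor p15INK4b, and MTAP encodes the methionine salvage enzyme that is often lost together with both in tumours. The type I interferon cluster lies on the telomeric side of MTAP. Nearer the telomere lie JAK2, the kinase of many cytokine receptors, and CD274 and PDCD1LG2, which encode the immune checkpoint ligands PD-L1 and PD-L2. The arm also carries very long genes of the nervous system, such as PTPRD, a receptor tyrosine phosphatase, and LINGO2.

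Each deposited peak has a summit, the base with the most fragments. It also has a fold enrichment, the fragments at the summit over the local background expected for that place, with 1 added to both. The whole-number pileup (the fragments that cover the summit) and the local background were solved from the deposited fold enrichment and -log10 p. To compare both lists, the pileup was divided by the smallest local background of its own list, which was 2.20 fragments in control and 1.72 in sgSNHG1. This quotient is called the scaled pileup, and log2 ratios are sgSNHG1 over control throughout. Standard errors (SE) of single log2 ratios and the 95% intervals of shares cover counting error only. The 95% intervals of medians come from order statistics and cover the spread between pairs, taken as independent although neighbours share a region. None of these covers replicate spread. Peaks overlapping by at least 1 bp were called shared, and mutual best overlaps formed pairs. Peaks with any base within 3 kb of the 5' end of a gene record of GENCODE version 44, its transcription start site (TSS), were called promoter peaks, and all others distal.

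Over the whole series the median pileup was 24 fragments in control and 20 in sgSNHG1. The promoter of SNHG1, the targeted gene, had a peak in both lists, enriched 5.71-fold in control and 6.04-fold in sgSNHG1. A promoter peak was present in both lists at GATA3 and DBH, genes that neuroblastoma cells use, and in neither list at TH, which such cells can also use. PTPRC, a leukocyte gene, had none, whereas EPCAM, an epithelial gene, had 1 in each list.

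The sequences under 8 control peaks are shown because the results on the 9p21 stretch and on the extremes of the segment turn on them. They were read from the plus strand of GRCh38 around the control summit and leave out annotated UTR bases, so that the MTAP window ends before its summit. Capitals mark matches on either strand to 8 short consensus sequences: the GC box GGGCGG of SP1 and KLF factors, the CCAAT box of NF-Y, the ETS sequence CCGGAAG, the CRE sequence TGACGTCA, the E-boxes CACGTG of MYC and CATCTG of neurogenic bHLH factors, TGANTCA of AP-1 and AGATAA of GATA factors. The first pair comes from the control peaks at the outer and the inner CDKN2A start, neither of which had an sgSNHG1 peak. The windows shown lie beside the annotated CDKN2A transcript starts and contain none of them.
CDKN2A and CDKN2B-AS1 promoter peak, chr9:21994693-21994820: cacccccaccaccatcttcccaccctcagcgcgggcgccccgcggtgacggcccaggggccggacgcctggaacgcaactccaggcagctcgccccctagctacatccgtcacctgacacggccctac
CDKN2A inner start peak, chr9:21974914-21975114: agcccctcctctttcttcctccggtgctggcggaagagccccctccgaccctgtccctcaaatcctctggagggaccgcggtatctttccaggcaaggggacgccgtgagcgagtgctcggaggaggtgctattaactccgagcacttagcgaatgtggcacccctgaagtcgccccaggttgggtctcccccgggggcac

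The next pair comes from the flanking promoters that had a peak in both lists, and the fifth sequence from the strongest distal peak of the stretch, in an intron of MTAP.
CDKN2B promoter peak, chr9:22009306-22009408: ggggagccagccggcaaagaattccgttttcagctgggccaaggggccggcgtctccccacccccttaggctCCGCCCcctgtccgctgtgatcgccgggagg
MTAP promoter peak, chr9:21802435-21802635: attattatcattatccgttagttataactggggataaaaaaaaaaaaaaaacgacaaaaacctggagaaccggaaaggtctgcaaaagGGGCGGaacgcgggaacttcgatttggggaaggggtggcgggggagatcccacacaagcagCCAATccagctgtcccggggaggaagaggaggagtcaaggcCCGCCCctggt
MTAP intron peak, chr9:21872797-21872991: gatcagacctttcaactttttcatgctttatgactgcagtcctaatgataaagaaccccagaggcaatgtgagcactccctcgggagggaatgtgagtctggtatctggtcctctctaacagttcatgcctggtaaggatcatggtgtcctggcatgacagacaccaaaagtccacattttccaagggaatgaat

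The last 3 are the distal pair with the lowest ratio in ELAVL2, the control peak of highest fold enrichment without an sgSNHG1 peak, and the pair with the highest ratio of the segment.
ELAVL2 intron peak, chr9:23783592-23783792: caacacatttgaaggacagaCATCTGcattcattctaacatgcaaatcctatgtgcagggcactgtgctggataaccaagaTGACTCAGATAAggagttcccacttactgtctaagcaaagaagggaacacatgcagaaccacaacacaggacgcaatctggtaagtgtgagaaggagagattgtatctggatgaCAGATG
Intergenic control-only peak, chr9:24939260-24939460: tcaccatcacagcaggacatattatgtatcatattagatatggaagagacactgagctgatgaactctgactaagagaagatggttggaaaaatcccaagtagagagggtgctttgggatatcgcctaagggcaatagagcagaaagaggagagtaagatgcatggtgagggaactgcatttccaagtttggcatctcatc
Highest-ratio pair, chr9:8158731-8158884: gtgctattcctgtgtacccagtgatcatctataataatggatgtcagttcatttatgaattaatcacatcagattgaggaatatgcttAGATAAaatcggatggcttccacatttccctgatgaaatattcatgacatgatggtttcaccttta

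Both CDKN2A windows were rich in G and C, with 71.9% and 64.2%, and held 12 and 13 CpG dinucleotides, but none of the 8 consensus sequences. The MTAP window held 2 GC boxes and 1 CCAAT box, and the CDKN2B window 1 GC box. The ELAVL2 intron window held CATCTG at 2 places and 1 AP-1 match that shares a base with its 1 GATA match. The other distal windows had 1 CpG each, and the only match among them was 1 GATA sequence in the highest-ratio pair. A match describes letters and not a bound factor.

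The sgSNHG1 list held far fewer peaks of the 9p segment than the control list. There were 316 control peaks (exact Poisson interval 282 to 353) and 133 sgSNHG1 peaks (111 to 158), a ratio of 0.421. On the rest of chromosome 9 the counts were 1635 and 1464, a ratio of 0.895. Control peaks covered 132 kb of the segment and sgSNHG1 peaks 42.0 kb, with mean widths of 417 and 316 bp. Of the 316 control peaks, 115 overlapped an sgSNHG1 peak, or 36.4% (Wilson interval 31.3 to 41.8%), and 201 did not. Over the whole control list 33.3% of peaks had no sgSNHG1 peak. In the other direction, control peaks were found at 126 of the 133 sgSNHG1 peaks, 94.7% (89.5 to 97.4%), and at 7 there was none, where the whole sgSNHG1 list had 21.8% without a control peak. Peaks of the segment in sgSNHG1 cells were thus nearly all among those of control cells. Because this contrast set the end of the segment, nothing is read from the distance between these shares.

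Where a site had a peak in both lists, the sgSNHG1 peak was lower. Over the 115 pairs the log2 ratio of scaled pileup was -0.94 in the median (interval -1.04 to -0.86), which is a ratio of 0.522, with quartiles of -1.19 and -0.70. The range ran from -1.89 to 1.20. The ratio was below 0 in 107 pairs, at -0.5 or lower in 95, and at 0.5 or higher in 6. Over all 31663 pairs of the series, 11.8% lay at -0.5 or lower and 11.2% at 0.5 or higher. The median pileup of the pairs was 46 fragments in control and 19 in sgSNHG1. Their SD was 0.55, and 0.36 when taken from the interquartile range, beside a median counting error of 0.41 for a single pair. On the rest of chromosome 9 the median over 1136 pairs was 0.01.

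**Figure D1:**
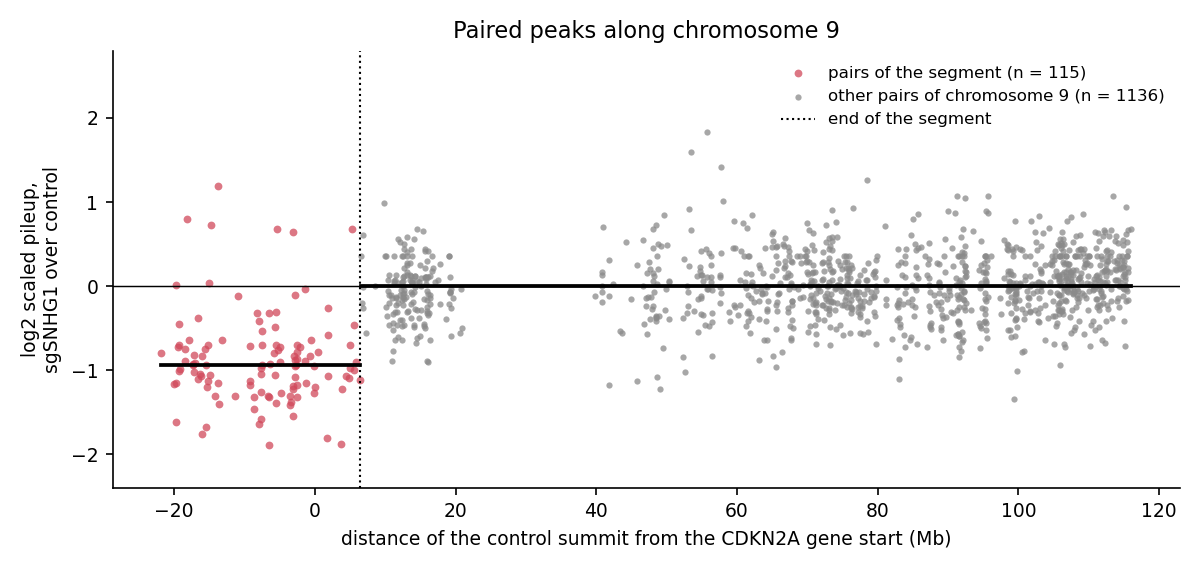
Log2 ratio of scaled pileup, sgSNHG1 over control (vertical axis), of each pair of peaks on chromosome 9 against the distance of the control summit from the CDKN2A gene start in Mb (horizontal axis). Each point is 1 pair, the thick lines are the medians (-0.94 over 115 pairs of the segment and 0.01 over 1136 other pairs), the dotted line is the end of the segment, and the segment's points lie mostly around -1 on both sides of CDKN2A.

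The low ratios ran along the whole segment rather than at the CDKN2A stretch alone. In windows of 5 Mb from the telomere the medians were -0.90 (19 pairs), -1.05 (20), -1.04 (17), -0.93 (35) and -0.90 (13) up to 25 Mb. The window from 20 to 25 Mb, which holds MTAP, CDKN2A and CDKN2B, lay within the range of the others. Peak numbers were lower in each window, from 48 control and 21 sgSNHG1 peaks in the first window to 40 and 15 in the fifth. The window from 25 to 30 Mb, which the end of the segment divides, had a median of -0.70, and the next from 30 to 35 Mb had -0.11 over 61 pairs.

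The last 3 pairs inside the end began with the C9orf72 promoter, with a log2 ratio of -1.0. The next lay within the lncRNA gene ENSG00000260390 at chr9:27836706-27837196 with -0.90, and the last in a LINGO2 intron at chr9:28363103-28363627 with -1.12. The first 3 pairs outside had 0.36 at chr9:28598638-28598821, -0.20 at chr9:28747281-28747870 and -0.26 at chr9:28779242-28779826. These are given as the values around the threshold and were not tested.

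The local background of the peaks was lower as well. Its median log2 ratio over the 115 pairs was -0.96 (-1.03 to -0.70), and it was below 0 in 114 pairs. The background cannot fall under the smallest value of the list, and 63.2% of the 133 sgSNHG1 peaks of the segment sat at that value against 20.9% of the 316 control peaks, so that the ratio of background is held up by this floor. On the rest of chromosome 9 the shares at the floor were 12.4% and 12.2%. Fold enrichment divides the pileup by this background after the constant given above is added to both. At backgrounds of a few fragments that constant weighs on the quotient, which was not computed without it. The median log2 ratio of this adjusted quotient was only -0.34 (-0.40 to -0.23). Deposited fold enrichments of 9.14 in control and 7.19 in sgSNHG1, the medians of the pairs, thus hide most of the difference in fragments. DNA copies were not measured, and fewer copies of the segment and less accessible chromatin per copy cannot be told apart from peak lists. The sgSNHG1 peaks were also narrower, with a median width of 281 bp against 589 bp, and the width was smaller in 108 of 115 pairs. Of the 115 shared control peaks, 9 were split into 2 or more sgSNHG1 peaks. A narrower peak was common elsewhere too, since the median log2 ratio of width was -0.47 on the rest of chromosome 9 and -0.93 in the segment.

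Whether a control peak had a counterpart followed its height. Among control peaks of the segment with a pileup of 10 to 14 fragments, 4 of 69 had an sgSNHG1 peak, or 5.80% (2.28 to 14%). The share was 10.3% at 15 to 19 fragments, 22.4% at 20 to 29, 64.3% at 30 to 39 and 86.0% at 40 to 59. All 32 control peaks with 60 or more fragments had a counterpart. On the rest of chromosome 9 the shares in the first 4 classes were 26.8%, 49.7%, 70.7% and 96.1%. The control peaks without a counterpart had a median pileup of 17 fragments and those with one 46. The smallest pileup of any sgSNHG1 peak was 9 fragments, so that a site at the segment's median ratio would fall under the calling limit when its control pileup was low. At that ratio 153 of the 201 control-only peaks would have had fewer than 9 fragments and 48 would not.

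**Figure D2:**
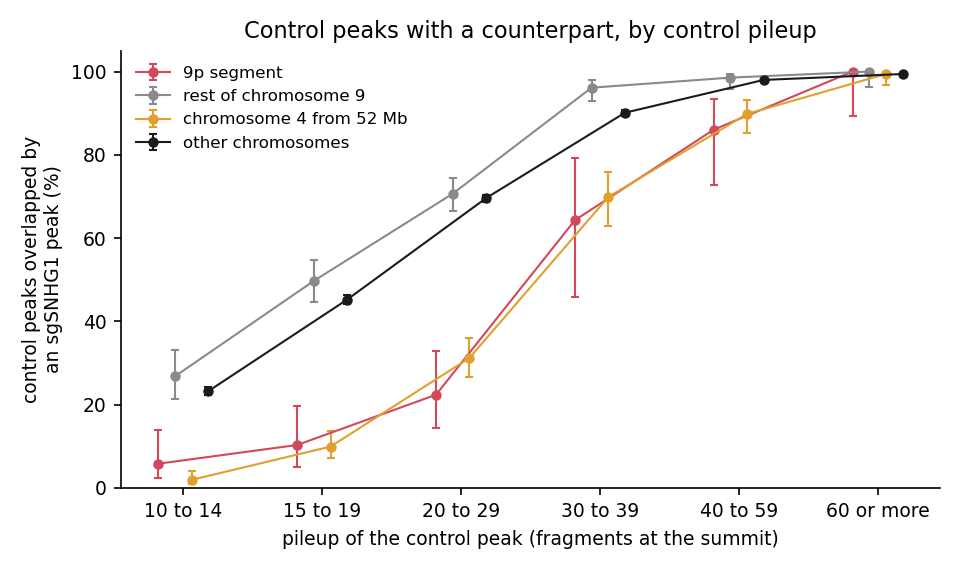
Share of control peaks overlapped by an sgSNHG1 peak in percent (vertical axis) by the pileup of the control peak in fragments (horizontal axis), for the 9p segment, the rest of chromosome 9, chromosome 4 from 52 Mb and all other chromosomes. Points are shares and bars are 95% Wilson intervals, and the segment goes from 5.80% in the lowest class to 100% in the highest, below the rest of chromosome 9 in every class up to 59 fragments.

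Pairs at low control pileup were a selected set, and all higher values fell there. The ratio was above 0 in 8 pairs, whose control pileups ran from 14 to 17 and whose sgSNHG1 pileups ran from 11 to 25. Of the 137 control peaks under 20 fragments only 11 formed a pair. All 104 pairs with 20 or more control fragments had a ratio below 0. In the rest of the genome 4070 of 9026 pairs with 20 to 29 control fragments were below 0. With 30 or more fragments 10836 of 16803 were. Over the 69 pairs with a control pileup of at least 40 the median was -1.07, where the rest of the genome had -0.15. The highest ratio belonged to an intergenic pair at chr9:8158685-8158884, shown above, with 14 fragments in control, 25 in sgSNHG1 and a log2 ratio of 1.20 (SE 0.48). A pair in an annotated UTR of GLIS3 had 14 and 19 fragments and a ratio of 0.80 (SE 0.51).

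Promoter and distal peaks differed in how many had a counterpart but hardly in their ratios. Of the 96 control promoter peaks 55 overlapped an sgSNHG1 peak, or 57.3% (47.3 to 66.7%), and of the 220 distal peaks 60 did, or 27.3% (21.8 to 33.5%). On the rest of chromosome 9 these shares were 79.7% and 63.8%. The median log2 ratio of scaled pileup was -0.94 (-1.04 to -0.83) over 55 promoter pairs and -0.94 (-1.13 to -0.70) over 60 distal pairs. Promoter peaks thus made up 30.4% of the control peaks of the segment (25.6 to 35.7%) and 48.1% of its sgSNHG1 peaks (39.8 to 56.5%). Outside the segment these shares were 35.4% in control and 37.6% in sgSNHG1. Within the control list, which does not use the contrast, the promoter share of the segment differed from that elsewhere by -5.05 percentage points, with a Newcombe interval from -9.88 to 0.25. Of the 220 distal control peaks 146 had their summit in an intron, 59 between genes, 8 in a UTR and 7 in another exon.

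The segment held the TSS of 99 protein-coding genes. A promoter peak was present in control at 56 and in sgSNHG1 at 43, and all 43 were among the 56. The other 13 genes, or 23.2% (14.1 to 35.8%), had a promoter peak in control alone, where 9.80% of the 12578 protein-coding genes with a control promoter peak did so over all chromosomes. SAXO1 with RRAGA and PLAA with IFT74 each shared a promoter peak, so that the 43 genes rest on 41 pairs of peaks. The log2 ratio of scaled pileup at the highest promoter peak was below 0 in all 43 and at -0.5 or lower in 40, with a median of -0.98. Protein-coding genes outside the segment had a median of -0.04, and 54.7% of the 11302 with a peak in both lists were below 0. The control-only genes had a median control pileup of 18 fragments and the 43 others 58.

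**Figure D3:**
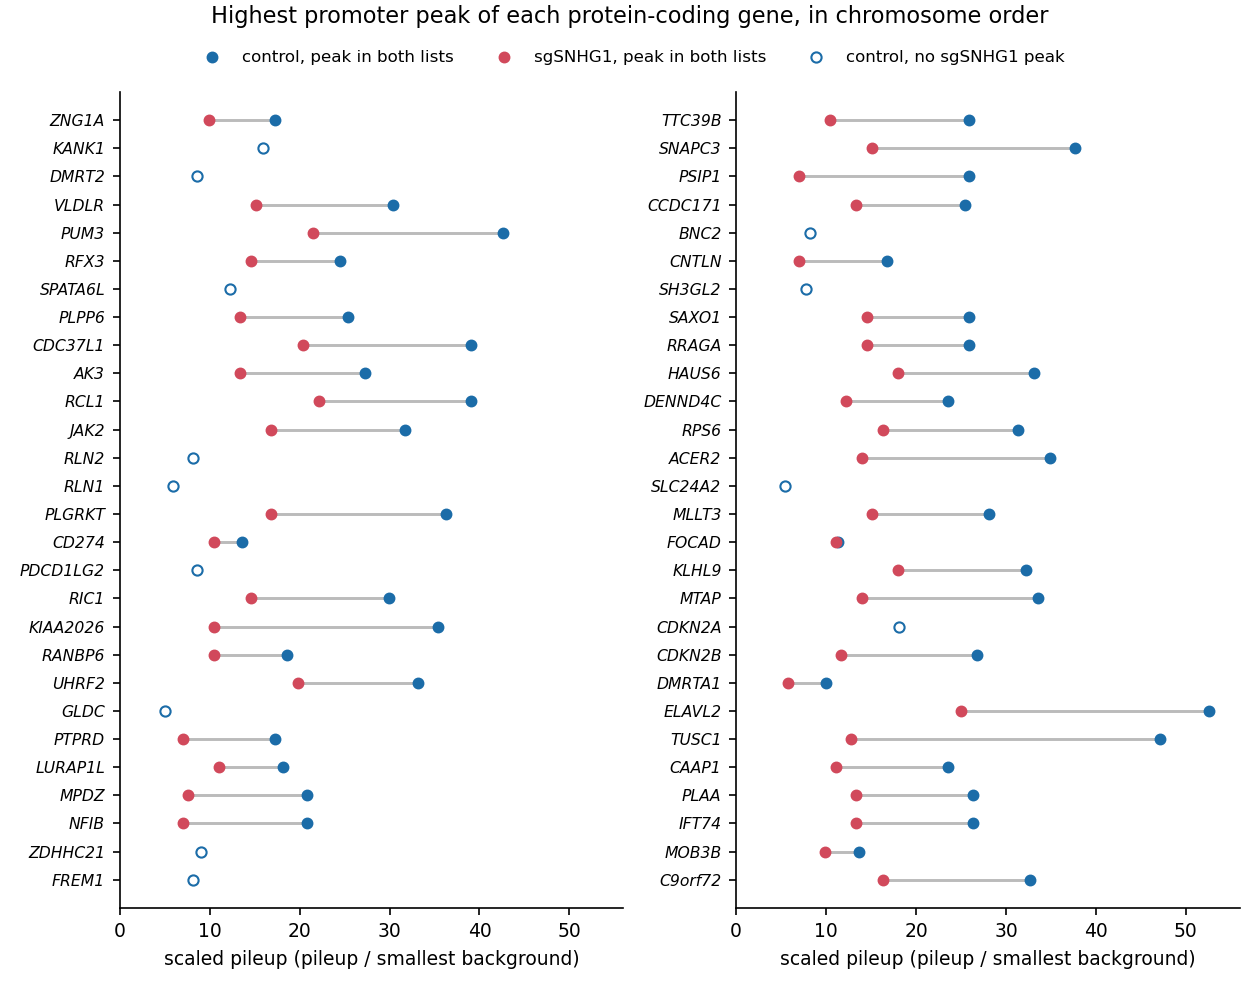
Scaled pileup (pileup divided by the smallest local background of its list, horizontal axis) at the highest promoter peak of the 56 protein-coding genes with a control promoter peak, in chromosome order from the telomere. Filled points are genes with a peak in both lists (control and sgSNHG1, joined by a line), open points are the 13 genes with a control peak alone, and the sgSNHG1 point lies left of the control point in all 43 joined genes, for FOCAD by only 0.04 on the log2 scale.

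In the 9p21 stretch, all 4 control peaks at CDKN2A and its non-coding neighbours CDKN2B-AS1 and CDKN2A-DT were without an sgSNHG1 peak, while MTAP and CDKN2B had peaks in both lists. CDKN2A (ENSG00000147889.18) lies on the minus strand at chr9:21967752-21995301. Its outer promoter, the start of the p14ARF transcript, had a control peak at chr9:21994604-21995575, enriched 7.60-fold with a pileup of 40, and no sgSNHG1 peak. Its summit lay 508 bp inside the gene, 2 bp from a transcript start of CDKN2B-AS1, the antisense long non-coding RNA also known as ANRIL, and both genes share this peak. A second, weaker control peak at chr9:21994092-21994435 covered the gene start of CDKN2B-AS1, was enriched 3.33-fold with a pileup of 17, and had no sgSNHG1 peak either. The third control peak, at chr9:21974850-21975212, lay 20.3 kb into the gene and 148 bp from the nearest CDKN2A transcript start, the side from which p16INK4a is made. It was enriched 6.74-fold with a pileup of 24 and had no sgSNHG1 peak. By the gene record it counts as distal. The divergent transcript CDKN2A-DT had a peak at chr9:21965436-21965778, enriched 5.44-fold with a pileup of 19, again in control alone. These absences were among the 33.3% of control peaks without a counterpart over the whole list.

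The flanking promoters had a peak in both lists. CDKN2B (chr9:22002903-22009305, minus strand) was enriched 9.78-fold in control and 7.72-fold in sgSNHG1, with pileups of 59 and 20 and a log2 ratio of scaled pileup of -1.20 (SE 0.37). MTAP (chr9:21802636-21937651, plus strand) had 9.87 and 7.69, with pileups of 74 and 24 and a log2 ratio of -1.27 (SE 0.34). Both ratios lay a little below the median of the segment, by less than their counting errors. The strongest distal peak of the stretch, in an MTAP intron at chr9:21872519-21872991, had 11.5 and 7.36, with pileups of 47 and 19 and a log2 ratio of -0.95 (SE 0.39). DMRTA1, a DM domain transcription factor gene, had 6.33 in control, and in sgSNHG1 its peak was split into 2 peaks of 4.05 each. Its pileups were 22 and 10 and the log2 ratio was -0.78 (SE 0.55). The remaining 3 control peaks between 21.7 and 22.5 Mb had pileups of 11 to 23 and no counterpart.

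The CDKN2A promoter stood out among control-only peaks by its height. With 40 fragments it ranked 6th of the 201, and it was the highest at a promoter. At the median ratio of the segment a control pileup of 40 corresponds to 16.3 sgSNHG1 fragments, above the lower quartile of 12 fragments among the sgSNHG1 peaks of the segment. Of the 43 control peaks with 40 to 59 fragments, 6 had no counterpart. Whether the difference at CDKN2A exceeded that of the segment around it was not tested.

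**Figure D4:**
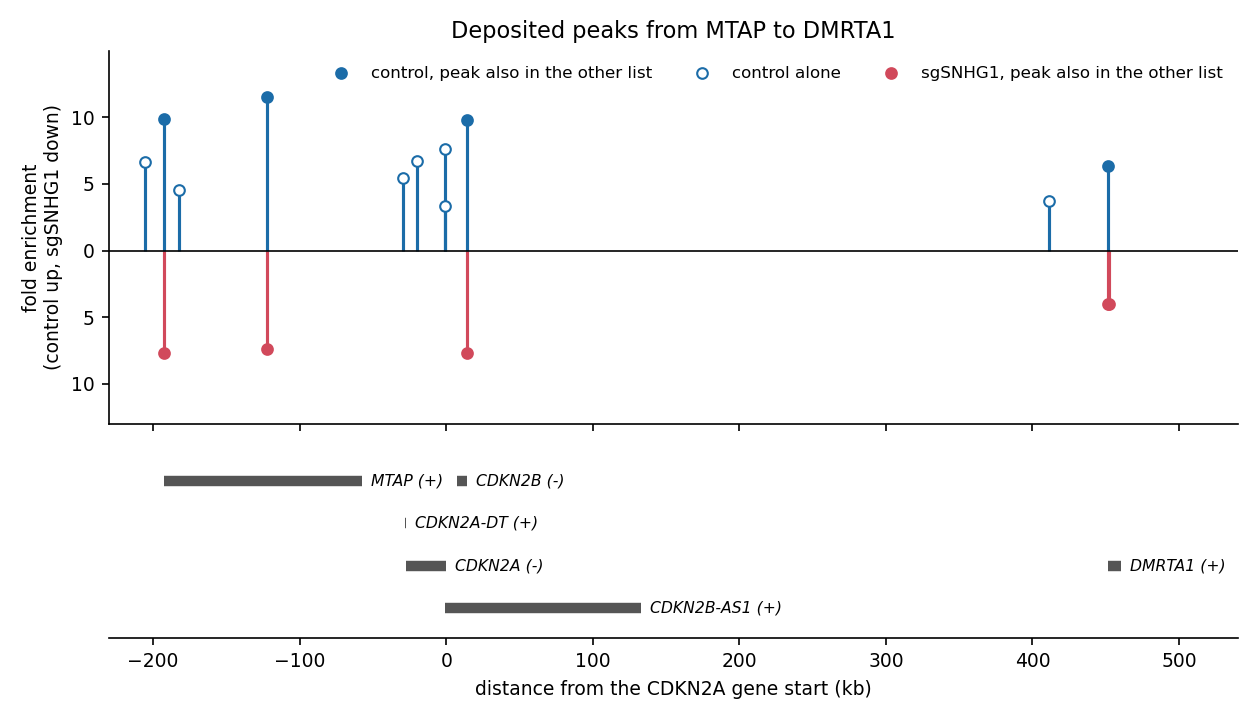
Fold enrichment of each deposited peak (vertical axis, control upward and sgSNHG1 downward) from MTAP to DMRTA1 against the distance from the CDKN2A gene start in kb (horizontal axis), with the genes drawn below and their strands in brackets. Filled points overlap a peak of the other list and open points do not, and the 4 control peaks from CDKN2A-DT to the CDKN2A start have no sgSNHG1 peak while MTAP (9.87 and 7.69) and CDKN2B (9.78 and 7.72) have one.

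None of the 17 type I interferon genes had a promoter peak in either list. These genes, of which IFNB1 and the IFNA family are induced on viral infection, include many near-identical copies, and reads that map to several places had been removed. Between IFNB1 and IFNE, the outer genes of the cluster, lay 4 control peaks and 2 sgSNHG1 peaks over 405 kb. The strongest was the promoter of KLHL9, a substrate adaptor of a ubiquitin ligase, enriched 13.2-fold and 11.8-fold, with a log2 ratio of scaled pileup of -0.84 (SE 0.31). The other shared site, at the lncRNA ENSG00000261696, had pileups of 28 and 14 and a ratio of -0.64 (SE 0.47).

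Near JAK2, 7 of 11 genes had a control promoter peak, 4 had one in both lists and 3 in control alone. The control-only share was thus 42.86% of 7 genes (15.82 to 74.95%). It was 23.2% over the protein-coding genes of the segment and 9.80% over all chromosomes. The difference between these shares was not tested. JAK2 was enriched 9.66-fold in control and 8.53-fold in sgSNHG1, with pileups of 70 and 29 and a log2 ratio of -0.91 (SE 0.32). CD274, the PD-L1 gene, had 8.52 and 6.99, with pileups of 30 and 18 and a log2 ratio of -0.38 (SE 0.43), one of the highest among strong pairs. PDCD1LG2, the PD-L2 gene, had a peak in control alone, with 5.66 and a pileup of 19. The relaxin genes RLN2 and RLN1, close paralogs, had weak control peaks of 5.93 and 4.37 and none in sgSNHG1. RIC1, which takes part in Golgi traffic, had 9.89 and 7.74 and a ratio of -1.04 (SE 0.34). PLGRKT, a plasminogen receptor gene, had 12 and 10.4 and a ratio of -1.11 (SE 0.31). No promoter peak was found at INSL4, INSL6, IL33 or, at its gene record, ERMP1, which had pileups of 51 and 19 and a ratio of -1.07 (SE 0.39) at another start. Of the DMRT genes, which act in sex determination and differentiation, DMRT2 had a control peak of 4.73 alone, DMRTA1 is described above, and DMRT1 and DMRT3 had none.

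Among 10 genes of chromatin and transcription, 7 had a control promoter peak and 6 had one in both lists. The control-only share was 14.3% (2.57 to 51.3%), beside 23.2% over the protein-coding genes of the segment and 9.80% over all chromosomes. The 6 ratios had a median of -1.11. PSIP1, which encodes the chromatin-tethering factor LEDGF, had the lowest ratio of the segment, being enriched 11.1-fold in control and 4.78-fold in sgSNHG1, with pileups of 57 and 12 and a ratio of -1.89 (SE 0.46). NFIB, a nuclear factor I gene, had 11.2 and 4.78 and a ratio of -1.58 (SE 0.47), at a peak by the start of a lncRNA whose edge alone lay within 3 kb of the NFIB start. SNAPC3, a subunit of the complex that activates small nuclear RNA genes, had 12 and 9.65 and a ratio of -1.32 (SE 0.32). MLLT3, which encodes the elongation factor partner AF9, had 8.90 and 7.99 and a ratio of -0.90 (SE 0.34). RFX3, a regulator of cilia genes, had 6.65 and 7.54, so that its fold enrichment was higher in sgSNHG1 while its pileups of 54 and 25 gave a ratio of -0.75 (SE 0.35). UHRF2, a ubiquitin ligase that binds modified DNA, had 11.1 and 11.8 with pileups of 73 and 34 and a ratio of -0.74 (SE 0.30). BNC2, a zinc finger gene, had 3 weak control promoter peaks, the highest of 4.67, and none in sgSNHG1, at its gene record. At another BNC2 start a stronger peak was in both lists, with 10.6 and 6.62, pileups of 37 and 17 and a ratio of -0.76 (SE 0.42). SMARCA2, KDM4C and GLIS3 had no peak at the start of the gene record, but peaks of both lists lay at other transcript starts, with ratios of -1.16 (SE 0.30), -1.13 (SE 0.34) and -0.64 (SE 0.53).

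Of the neuronal list, 7 genes had their start in the segment, 5 had a control promoter peak and 3 had one in both lists. The control-only share was 40% (11.8 to 76.9%), beside 23.2% over the protein-coding genes of the segment and 9.80% over all chromosomes. ELAVL2, a neuronal RNA-binding protein gene, had the deepest peak of the segment, where 116 control and 43 sgSNHG1 fragments gave a log2 ratio of -1.07 (SE 0.26), while its fold enrichment was 9.35 and 9.71. VLDLR, a receptor for reelin, had 9.31 and 8.80 and a ratio of -1.01 (SE 0.33). PTPRD had 8.96 and 4.78 with pileups of 38 and 12 and a ratio of -1.30 (SE 0.48). SH3GL2, an endophilin gene of synaptic vesicle recycling, and SLC24A2, a calcium exchanger gene, had control peaks of 5.20 and 3.89 alone.

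Of 20 genes of general cell functions, 18 had a control promoter peak and 16 had one in both lists. The control-only share was 11.1% (3.10 to 32.8%), beside 23.2% over the protein-coding genes of the segment and 9.80% over all chromosomes. The 16 ratios had a median of -0.96. RPS6, a ribosomal protein gene, was enriched 11.7-fold in control and 10.3-fold in sgSNHG1, with pileups of 69 and 28 and a ratio of -0.94 (SE 0.32). PUM3, an RNA-binding protein of the nucleolus, had the highest promoter fold enrichment of the segment, 14 and 12.9, with pileups of 94 and 37 and a ratio of -0.99 (SE 0.28). RCL1, which takes part in ribosomal RNA processing, had 9.18 and 9.88 and a ratio of -0.82 (SE 0.28). C9orf72, the gene of the repeat expansion in amyotrophic lateral sclerosis, had 9.74 and 9.02 and a ratio of -1.0 (SE 0.32). The shared promoter of PLAA and IFT74, the latter a component of cilia transport, had 10.9 and 8.83 and a ratio of -0.98 (SE 0.36). RRAGA, a GTPase of amino acid sensing, had 9.76 and 9.23 and a ratio of -0.83 (SE 0.35). Ratios at these 6 promoters thus ran from -1.0 to -0.82, around the median of the segment.

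The other genes of that list spread around it. MPDZ, a scaffold protein of cell junctions, had the lowest ratio, -1.46 (SE 0.45), with pileups of 46 and 13, and CNTLN, a centrosomal protein gene, had -1.27 (SE 0.48). CAAP1, AK3, CDC37L1, DENND4C and HAUS6 ran from -1.09 to -0.88. FOCAD had the highest, -0.04 (SE 0.44), with a fold enrichment of 7.58 and 7.36 and pileups of 25 and 19 at its gene record, a peak 338 bp from the TSS. At another FOCAD start the pileups were 77 and 27 and the ratio was -1.15 (SE 0.32), so that the value near 0 belongs to the weaker of its promoters. KANK1, a regulator of the actin skeleton, had a control peak of 7.80 with a pileup of 35 and no sgSNHG1 peak, the highest fold enrichment among the 13 control-only genes. ZDHHC21, an acyltransferase gene, had 5.98 in control alone, and so did SPATA6L, GLDC and FREM1 outside the lists, with 4.95, 3.36 and 5.40. PLIN2 and DOCK8 had no promoter peak at their gene records.

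Among strong pairs, those with a control -log10 q of at least 10, all 103 had a ratio below 0 and 94 lay at -0.5 or lower. Over all 31663 pairs of the series, of any -log10 q, 11.8% lay at -0.5 or lower. The 5 lowest were PSIP1 (-1.89), TUSC1 (-1.88, SE 0.34), an ELAVL2 intron peak (-1.80, SE 0.35), KIAA2026 (-1.76, SE 0.38) and a GLDC intron peak (-1.68, SE 0.51). TUSC1, an intronless gene named as a tumour suppressor candidate, was enriched 13.3-fold and 7.23-fold with pileups of 104 and 22, and its sgSNHG1 peak was split in 2. At KIAA2026 the pileups were 78 and 18, and the sgSNHG1 peak was split in 3. The ELAVL2 intron peak, 42.6 kb from the gene start, had 13.7 and 8.09 with pileups of 94 and 21. The 5 highest were FOCAD (-0.04), a PLIN2 intron peak (-0.11, SE 0.41), an intergenic peak near AKAP8P1 (-0.12, SE 0.45), an intergenic peak near ENSG00000231460 (-0.26, SE 0.51) and CD274 (-0.38). All 5 had control pileups of 20 to 30, and each was within its counting error of 0.

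The strongest promoter peaks of control all had a counterpart. After PUM3 they were TUSC1, KLHL9, CDC37L1 with its divergent transcript, HAUS6, ACER2, ZNG1A, LURAP1L-AS1, SNAPC3 and PLGRKT, with control fold enrichments from 13.3 down to 12. ACER2, a ceramidase gene, had pileups of 77 and 24 and a ratio of -1.32 (SE 0.34). ZNG1A, which has near-identical copies elsewhere on the chromosome, had 38 and 17 and a ratio of -0.80 (SE 0.42). LURAP1L-AS1 had 70 and 25 and a ratio of -1.13 (SE 0.34). The 10 strongest distal peaks of control also had a counterpart each. The first lay between genes at chr9:13330538-13330976 at 14.7-fold, and others lay in introns of ELAVL2, LINGO2, KDM4C, MTAP and BNC2.

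Long genes held many of the distal peaks. The 6 protein-coding genes with at least 7 distal control peaks held 66 of them, 18 with a counterpart. ADAMTSL1, a gene of an extracellular matrix protein, had 18, of which 7 had an sgSNHG1 peak, with pair ratios from -1.54 to 0.64. NFIB had 15, of which 1 had a counterpart, with pileups of 58 and 23, and the other 14 had control pileups of 11 to 33. PTPRD had 9 distal control peaks over 2299 kb and 2 counterparts, with ratios of -1.40 and -0.64. LINGO2, of 1276 kb, lies only partly in the segment. That part had 7 distal control peaks and 1 counterpart, with pileups of 64 and 23. KDM4C, a histone demethylase gene, had 9 and 4, with ratios from -1.13 to 0.04, and BNC2 had 8 and 3. MOB3B and RFX3 had 6 and 5 distal control peaks and no distal sgSNHG1 peak. Of all 220 distal control peaks of the segment 27.3% had a counterpart, beside 63.8% on the rest of chromosome 9. Between genes, 17 of 59 control peaks had a counterpart.

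Of the 201 control-only peaks 41 were promoter and 160 distal. The 5 of highest fold enrichment were all distal. They lay between genes at chr9:24939069-24939606, shown above, with 11.1 and a pileup of 44, in an ADAMTSL1 intron at chr9:18498994-18499459 with 10.3 and a pileup of 46, in a LINGO2 intron at chr9:28005858-28006178 with 9.96, in a lncRNA intron at chr9:13500134-13500389 with 9.49, and in an annotated UTR of RFX3 at chr9:3270414-3271032 with 9.09. The highest pileup of a control-only peak was 49, at chr9:23821385-23822018 in ELAVL2, where the fold enrichment was 3.75 over a local background of 12.3 fragments. The 7 sgSNHG1-only peaks were weak, with pileups up to 14 and a highest fold enrichment of 5.52. That one lay at chr9:11307-11423 near DDX11L5, a pseudogene with near-identical copies at other chromosome ends. The next 4 lay in introns of ADAMTSL1 (5.15), ENSG00000283982 (4.78), SAXO1 (4.41) and VLDLR (4.22).

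Long non-coding RNA genes were also examined by their starts. Of 123 with a TSS in the segment, 40 had a control promoter peak and 24 of these also had an sgSNHG1 peak, with ratios of -1.02 in the median. The other 16, or 40% (26.3 to 55.4%), had one in control alone, where 16.3% of the 5847 lncRNA genes with a control promoter peak did so over all chromosomes. Among them, ENSG00000231460 lies by the ELAVL2 promoter peaks, which had counterparts farther than 3 kb from its start. Many of these starts lie back to back with a protein-coding gene and use its peak, as CDC37L1-DT, RFX3-DT and PTPRD-DT do. VLDLR-AS1 starts within VLDLR on the other strand and also uses the VLDLR promoter peak. FOCAD-AS1 had pileups of 77 and 27 and a ratio of -1.15 (SE 0.32), and NFIB-AS1 had 43 and 14 and a ratio of -1.26 (SE 0.44). MIR31HG, the host of a microRNA next to the interferon cluster, had a control peak of 5.31 alone. Of the 24 ratios 22 were below 0, and those above 0 were at ENSG00000285688 (0.73, SE 0.47) and ENSG00000230694 (0.68, SE 0.48), with control pileups of 17 and 16.

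The DNA under the peaks differed between promoter and distal sites much as it did elsewhere. In windows of 201 bp around control summits the median GC content was 64.2% at the 96 promoter peaks and 45.8% at the 220 distal peaks, beside 65.7% and 50.7% over all promoter and distal peaks of the control list. The GC box stood in 46.9% of the promoter windows (37.2 to 56.8%) and 8.18% of the distal windows (5.24 to 12.6%), beside 51.2% and 11.0% over the whole list. The neurogenic E-box stood in 24.1% of distal windows (18.9 to 30.2%), beside 29.3%, and the AP-1 sequence in 7.73% (4.88 to 12%), beside 9.05%. GATA stood in 17.3% of distal windows (12.9 to 22.8%), beside 15.1%. The MYC E-box stood in 3.48% of all control windows of the segment (1.95 to 6.12%), beside 4.8%. Over all 316 windows the GC box differed by -5.32 percentage points from the rest of the list (Newcombe interval -9.37 to -0.55), and for the other 7 sequences the interval of the difference included 0. Peaks were not independent units for these intervals, since neighbours share a region. Control peaks with a counterpart had a median GC content of 57.2% and those without 46.8%, beside the promoter shares given above.

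A stretch of chromosome 4 from 52 Mb to the end of its long arm also had lower ratios. There 660 of 1594 control peaks, or 41.4% (39 to 43.8%), overlapped an sgSNHG1 peak, and the list had 764 sgSNHG1 peaks, a ratio of 0.479. The median log2 ratio of scaled pileup was -0.85 (-0.89 to -0.80) over 660 pairs, beside -0.94 (-1.04 to -0.86) in the 9p segment, and 57.6% of its sgSNHG1 peaks sat at the smallest background. The intervals of the medians overlap. This stretch had also been chosen on the same readout, and the difference between both was not tested.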

How the data were processed

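ATAC-seq libraries of 2 control and 2 sgSNHG1 samples were sequenced in paired-end mode. As the study's methods and the labels state, the authors trimmed reads with cutadapt, aligned them to GRCh38 with BWA, marked duplicates with GATK-Picard, removed improperly paired, multiply mapped, mitochondrial, blacklisted and duplicate reads, shifted read ends with deepTools, combined replicates and called peaks with MACS2 on fragments. They annotated peaks with ChIPseeker. Tool versions are not given in the sources used here. Each deposited list gives per peak a score, a fold enrichment of summit pileup over local background, a -log10 p, a -log10 q and the summit offset, all made by the authors' MACS2 run. The deposited score was 10 times the -log10 q, truncated, in 47608 of 47610 control and 42682 of 42682 sgSNHG1 peaks. No column belonged to other samples. Read totals per sample are not given in the sources used here, and the pileup stands for depth.

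The whole-number pileup and local background that give both the fold enrichment and the -log10 p were solved for each peak, within 0.001 in 47609 of 47610 control and 42682 of 42682 sgSNHG1 peaks. On simulated peaks 5000 of 5000 were recovered for each list. Genes were those of GENCODE version 44 on GRCh38. Of 75 listed genes 74 have their start in the segment (LINGO2 starts outside). Motifs were read from the GRCh38 sequence with samtools 1.23.1, and Python 3.11.15 with numpy 2.4.6, pandas 2.3.3, scipy 1.17.1 and matplotlib 3.10.9 was used.

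Segment, gene lists and rules were chosen with earlier results of these data known. Genes named were all of the 9p21 list, other listed genes with a control promoter peak, the 10 strongest promoter and distal control peaks, the 5 strongest peaks of each list alone, the 5 lowest and 5 highest strong pairs, and the 3 pairs on each side of the end. Other features were named after their values were seen: further distal host genes, lncRNA genes, control-only genes outside the lists, and pairs and control-only peaks singled out by ratio or pileup. Intervals are at 95% (Wilson for shares, Newcombe for differences of shares, exact Poisson for counts, order statistics for medians). No test between groups was made, because each group was 1 pooled list. Alternatives changed the overlap rule, the -log10 q minimum, the end of the segment, the scaling, the promoter rule and the motif window.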

Additional observations from a re-analysis of the deposited data

How the results depend on the processing

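The median ratios of the segment stayed below 0 under every alternative tried, and their size depended on the choices below. Of the control peaks 36.4% had an sgSNHG1 peak, and this share was 19.0% when the overlap had to span 50% of each peak, 28.5% with summits within 100 bp, 44.4% for control peaks with -log10 q of at least 5 and 64.8% for at least 10. The share of sgSNHG1 peaks with a control peak, 94.7%, was 45.1% with the 50% overlap, where narrower sgSNHG1 peaks cover less of their partner, and 97.9% at -log10 q of at least 5. The median log2 ratio of -0.94 was -0.34 by deposited fold enrichment, which divides by the lower local background with a constant added to both. The median for the local background, -0.96, was -0.66 for pairs farther than 3 kb from a TSS. A control pileup of at least 40, chosen after seeing the data, gave a median of -1.07 and a share of 92.0%. Promoter peaks, 30.4% of the control peaks, were 39.2% with the starts of any transcript and 19.9% with protein-coding genes alone. The difference for GATA, 2.06 percentage points, was -1.84 within 50 bp of the summit. For the GC box the difference of -5.32 percentage points was -2.51 in that narrower window, smaller but within the interval used. By fold enrichment the promoters of ELAVL2 (0.054), RCL1 (0.11), RFX3 (0.18) and UHRF2 (0.10) were above 0. Of the other listed genes with a promoter ratio, 17 moved outside their counting interval by fold enrichment and 11 stayed within it. With the starts of any transcript FOCAD was at -1.15, and for NFIB, RFX3 and IFT74 the highest peaks of both lists then lay at different sites, so that no ratio is given. Counting promoter peaks by their summit, chosen after seeing the data, took NFIB out and gave 13 of 55 protein-coding genes in control alone (23.6%). The causes of these shifts were not tested beyond what the definitions fix. In all, 23 settings tried for the values that answer a comparison left them within the intervals used, and 13 moved them outside. No paired analysis was possible because the replicates were pooled before peak calling, and leaving out a replicate was not possible for the same reason. At the segment's median ratio 153 of the 201 control-only peaks would have had fewer than 9 fragments, the smallest pileup of any sgSNHG1 peak, and the part of depth in their absence was not tested.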
